A study of Mus musculus with 12 samples.

Results

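The genes described here are 40 cell cycle genes and inhibitors of cyclin-dependent kinases (CDKs), chosen by gene symbol: 8 G1 cyclins and CDKs, 5 CDK inhibitors, 4 genes of the retinoblastoma (RB) family and E2F, 10 genes of DNA replication and nucleotide supply, and 13 genes of mitosis. All 40 had a row in both deposited tables, which list 15209 protein-coding genes at postnatal day 14 (P14) and 15334 at P16, with 14986 genes in both. The RNA came from cells of the dermal papilla (DP), the mesenchymal cluster at the base of the hair follicle, which were labelled with YFP and sorted by FACS from dissociated mouse skin during the growth phase (anagen). Control and dMF1/2 mice were each sampled at P14 and at P16, with 3 libraries of 1 mouse each per group and 12 libraries in all. dMF1/2 mice carried Cor-cre together with floxed alleles on both copies of the FGF receptor genes Fgfr1 and Fgfr2. The labels call the controls wild type. By the methods they carried either Cor-cre with a single floxed copy of each receptor gene or floxed alleles without Cor-cre. Which of these a given control library had is not given in the sources used here, although cells sorted for a reporter that Cre switches on would need Cor-cre. Every group carried this YFP reporter, and Cor-cre acts after birth under the control of Corin, a gene of the DP. In this genetic background the controls enter regression (catagen) soon after P16 and the mutants several days later, so both days lie within anagen in both genotypes.

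A cell enters the cycle when D-type cyclins with CDK4 or CDK6 phosphorylate the RB proteins, which frees E2F factors to switch on cyclin E and the replication genes. CDK inhibitors hold this step back, and in cells that have left the cycle the mitotic genes are silenced at their promoters by RB family and E2F proteins bound with the MuvB core. The DP of a growing follicle is known for dividing rarely, whereas the matrix keratinocytes that surround it are among the fastest dividing cells of the skin.

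The libraries held 19302358 to 29860750 reads over the listed genes. All 15 DP markers examined had rows in both tables, and their summed normalized reads were 97235 to 170212 at P14 and 78283 to 149841 at P16. Markers of other cells were also present, with sums of 375 to 936 for the 14 of 27 follicle keratinocyte markers with rows in both tables and 912 to 1911 for 10 of 10 endothelial markers. The sums were 77.1 to 180.7 for 7 of 9 melanocyte, 186 to 449 for 6 of 12 immune and 86.9 to 455 for 4 of 8 skeletal muscle markers. Markers of the dermal sheath (7 of 7) summed to 14427 to 45573. Replicate 1 of the P14 controls and replicate 1 of the P14 dMF1/2 mice stood apart, with Col1a1 at 7.06% and 9.15% of all reads against 13.06% to 17.72% in the other 10 libraries and a sum of 9 of 9 dermal fibroblast markers, most of it Col1a1 itself, of 1387890 and 1897614 against 3017486 to 4723955. Fgfr1 was between 7855 and 12340 normalized reads in the controls and between 6121 and 7837 in dMF1/2 mice, and Fgfr2 between 4547 and 5279 and between 3704 and 5470 (limma's adjusted p at P14 and P16 was 0.501 and 0.13 for Fgfr1 and 0.974 and 0.978 for Fgfr2). These are whole-gene values that do not separate the deleted exons from the rest. In sorted bulk RNA, fewer cells that express a gene and less of its RNA per cell cannot be told apart.

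Among the roles, the CDK inhibitors had the highest median level of RNA in the sorted cells and the mitotic genes the lowest. The ranges of neighbouring roles overlapped, and a split by role was not tested. Levels were ranked as normalized reads per kilobase of exon, averaged over the 12 libraries, among 14958 genes of both tables with an annotated length. The 5 CDK inhibitors among these genes ranked from the 56th percentile for Cdkn2c to the 93.8th for Cdkn1a, with a median of 88. Further Cdkn genes in the wider lists ranked lower, with Cdkn2b at the 33.7th percentile and Cdkn3 at the 7.2nd, and Cdkn2a had a row at P16 only, with a mean of 2.66 normalized reads. The 13 mitotic genes ranked near the bottom, from the 4.6th percentile for Bub1 to the 27.1st for Cdc20, with a median of 16.4. G1 genes lay between the 24.8th percentile for Ccne1 and the 90.5th for Cdk4 (median 58.4), RB family and E2F genes between the 27th for Rbl1 and the 78th for Rbl2, and replication genes between the 23.1st for Mcm2 and the 78.4th for Pcna (median 40.5). Per kilobase, Cdkn1a was at 664 normalized reads and Mki67, the gene of the proliferation antigen Ki-67, at 6.1. In each of the 4 groups these 5 CDK inhibitors had the highest median percentile of the 5 roles and the mitotic genes the lowest. The median percentile of the mitotic genes was 18.9 in P14 control, 17.8 in P14 dMF1/2, 15.3 in P16 control and 11.5 in P16 dMF1/2, while that of the CDK inhibitors was 85.9, 86.6, 87.8 and 89.4. No replicate spread is attached to these percentiles, which describe group means. In normalized reads per kilobase, the DP markers ran from 36.9 for Prom1 to 11600 for Wif1. The dermal fibroblast markers ran from 56.5 for Dlk1 to 15000 for Dcn, apart from Col1a1 at 537000. The levels are therefore those of the sorted cells as a whole, and the part of fibroblast RNA in them was not tested.

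**Figure D1:**
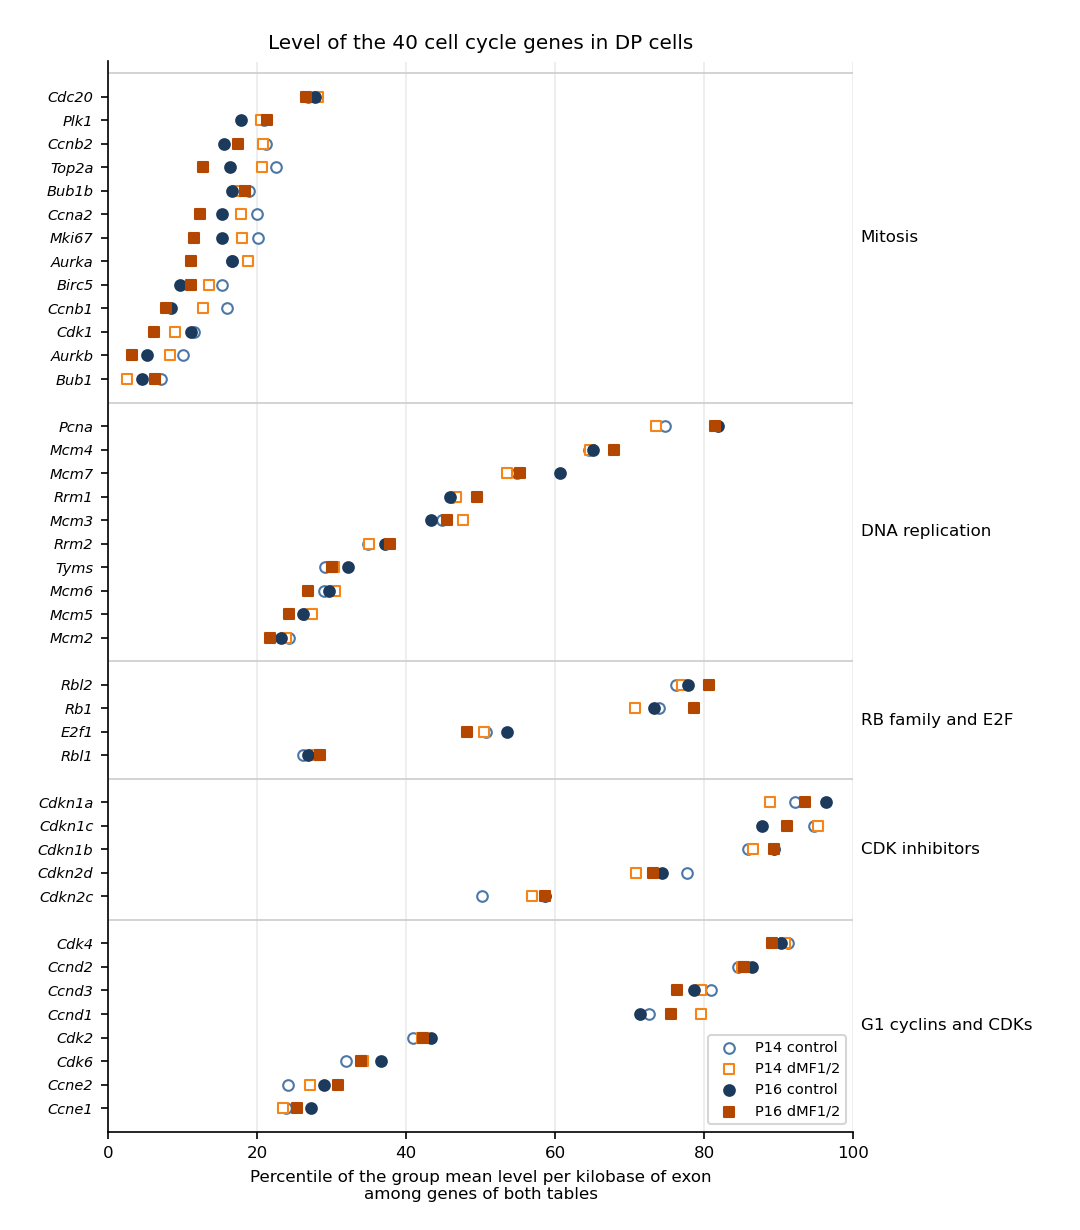
Percentile of each gene's level per kilobase of exon among the genes of both tables (x axis), with the 40 genes in rows by role. Points are the means of 3 libraries in each of the 4 groups. No mitotic gene exceeds the 28.2nd percentile in any group, and Cdkn1a, Cdkn1b and Cdkn1c are at the 85.9th or higher in every group.

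Genotypes were compared within each day and days within each genotype with limma on log2(normalized reads + 1), with p-values adjusted over all genes tested. Genes with a mean under 10 were left out, which removed Aurkb and Bub1 in each comparison and also Ccnb1 and Ccnb2 in the genotype comparison at P16. From P14 to P16 in controls, 4 of 38 members passed an adjusted p of 0.05, where 14.5% of all genes did, and 7 had an unadjusted p under 0.05, against 31.9% of all genes. These were the CDK inhibitors Cdkn1a, Cdkn1b and Cdkn1c and the replication gene Pcna. From P14 to P16 in dMF1/2 mice, 1 of 38 members passed (Pcna), against 5.80% of all genes, and 9 had an unadjusted p under 0.05, against 22.8%. Between genotypes at P14, 0 of 38 members passed with limma, edgeR or DESeq2, which called 0.0525%, 0.0525% and 1.55% of all genes, and 1 member (Cdkn2d) had an unadjusted p under 0.05, against 7.32%. Between genotypes at P16, 0 of 36 passed with limma or edgeR, which called 4.32% and 4.48% of all genes, and 1 (Cdkn1a) with DESeq2, which called 8.51%, and 5 members had an unadjusted p under 0.05 (Cdkn1a, Cdkn1c, Cdk4, Mcm7 and Rrm1), against 19.0% of all genes. Replicate numbers paired the libraries of a day, and with that number as a block 2 of 36 members passed at P16, Cdkn1a lower and Cdkn1c higher in dMF1/2 mice, where 10.4% of all genes did. The 2-day change did not differ between genotypes for any member by limma's, edgeR's or DESeq2's adjusted p, where limma called 0.00% of all genes. At an unadjusted p under 0.05 the counts were 1 member (Aurka) with limma, against 4.83% of all genes, and 0 with DESeq2. With the replicate number as a block in limma, they were 5 of 38 for this difference, 4 of 38 between genotypes at P14 and 9 of 36 at P16. The share of all genes at an unadjusted p under 0.05 was not counted with the block. All other unadjusted counts are from fits without a block. The groups did not overlap for 8 of 38 members over the 2 days in controls (36.0% of all genes), 9 of 38 in dMF1/2 mice (27.6%), 1 of 38 between genotypes at P14 (12.7%) and 7 of 36 at P16 (24.5%). With 1 library left out, the share of all genes called ranged from 5.17% to 14.5% in controls, from 1.92% to 5.05% in dMF1/2 mice and from 1.11% to 5.08% between genotypes at P16. The comparisons share groups, so their values are given side by side and were not set against each other otherwise.

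**Figure D2:**
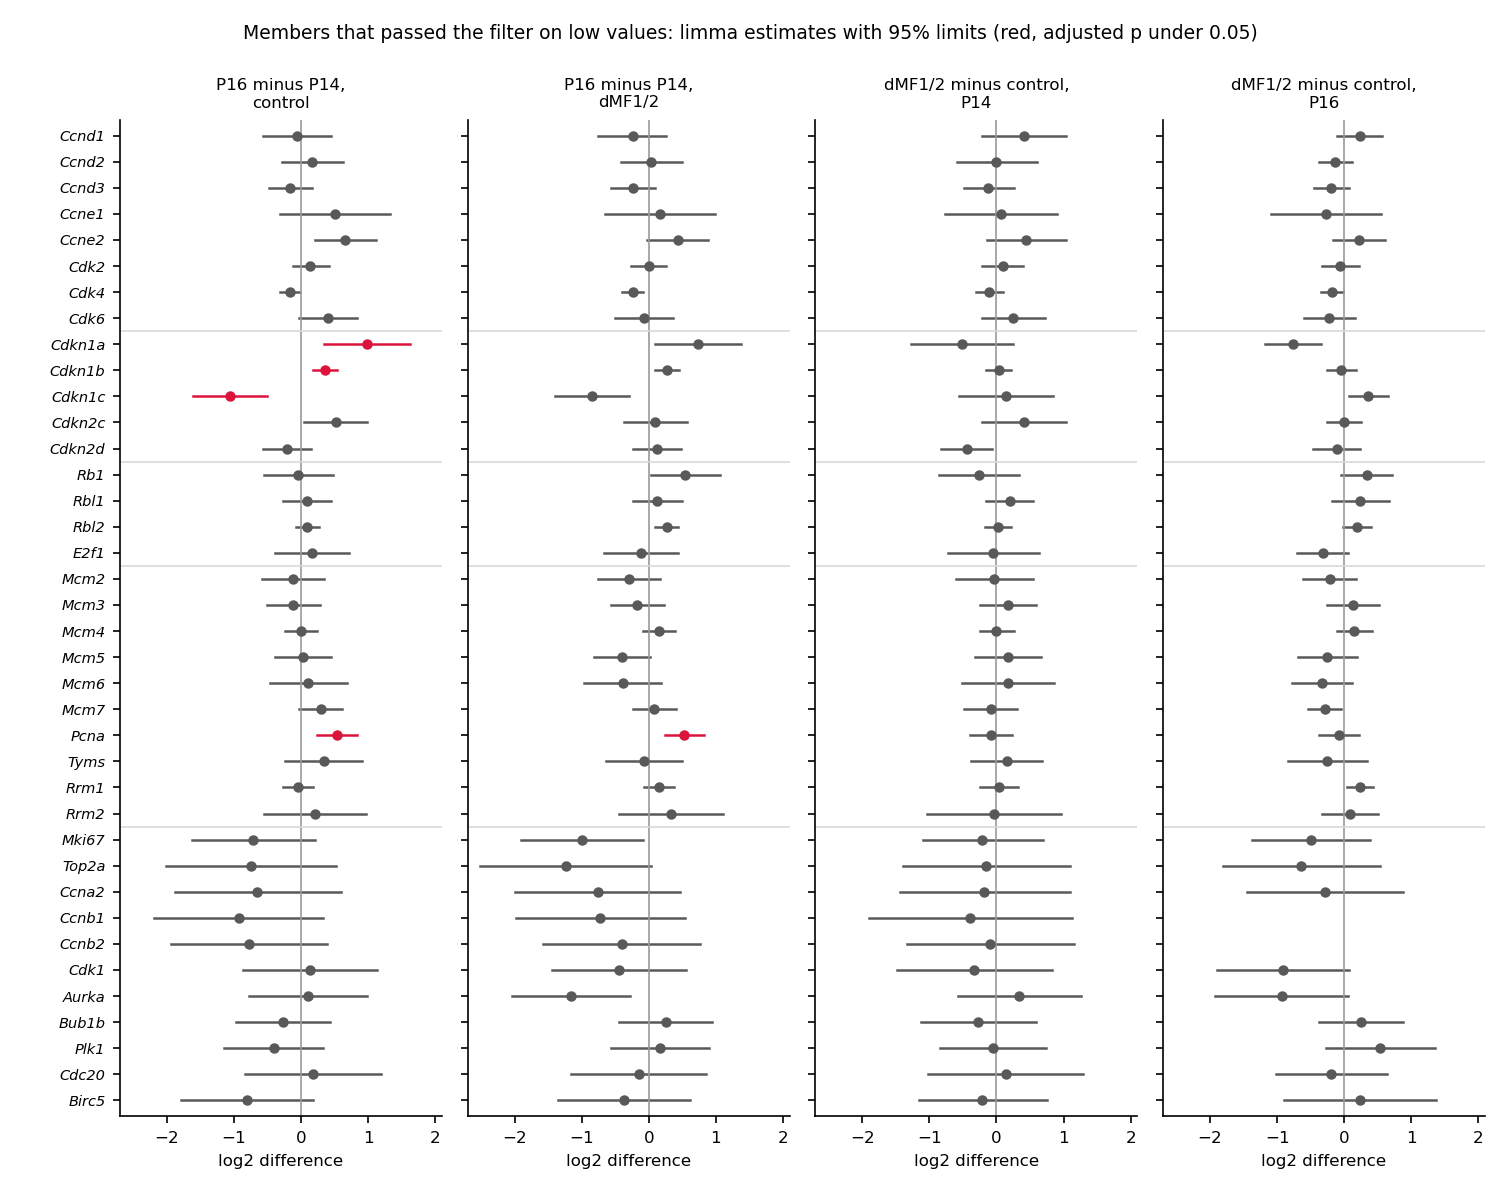
log2 differences of the members that passed the filter on low values (x axis), with limma's 95% limits, for the change from P14 to P16 in each genotype and for dMF1/2 minus control on each day. Red marks the 4 members called in controls and the 1 called in dMF1/2 mice.

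Among the CDK inhibitors, Cdkn1a and Cdkn1b rose and Cdkn1c fell from P14 to P16 in controls. Cdkn1a encodes an inhibitor of the CIP/KIP family that p53 and stress signals induce. It was at 1344, 2033 and 2518 normalized reads in P14 control, at 1275, 2008 and 911 in P14 dMF1/2, at 4280, 2834 and 4407 in P16 control, and at 2483, 1860 and 2346 in P16 dMF1/2 (replicates 1 to 3 in this order throughout). All 3 P16 controls lay above the other 9 libraries. The mean rose from 1965 ± 590 to 3841 ± 874 in controls (SD, n = 3), a log2 change of 0.99 ± 0.29 (SE, limma's adjusted p = 0.0449, and 0.00946 to 0.159 over the alternatives tried). In dMF1/2 mice the log2 change was 0.74 (95% limits 0.10 to 1.38, adjusted p = 0.158), and the groups overlapped. The difference between these 2 changes was -0.25 (-1.16 to 0.66). At P16 Cdkn1a was lower in all 3 dMF1/2 mice than in any control, by -0.76 ± 0.18 on the log2 scale (limma's adjusted p = 0.0606), and the adjusted p was 0.00247 with the replicate block, 0.00128 with DESeq2 and 0.0135 with limma without P16 control replicate 2, within a range of 0.00128 to 0.184 over all alternatives. At P14 the log2 difference was -0.52 ± 0.33 with overlapping groups.

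Cdkn1b encodes the CIP/KIP inhibitor best known for holding resting cells out of the cycle. Its normalized reads were 1494, 1448 and 1520 in P14 control, 1625, 1464 and 1490 in P14 dMF1/2, 1982, 1944 and 1794 in P16 control, and 2030, 1785 and 1730 in P16 dMF1/2. Every P16 library was above every P14 library. The log2 change was 0.36 ± 0.08 in controls (adjusted p = 0.0163) and 0.27 ± 0.08 in dMF1/2 mice (adjusted p = 0.0694), both by limma, and DESeq2 called the latter (0.0255, within a range of 0.0255 to 0.24 over the alternatives). The difference between the 2 changes was -0.08 (-0.33 to 0.17), and the genotypes differed at P16 by -0.04 (-0.25 to 0.17).

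Cdkn1c, an imprinted gene that encodes the third CIP/KIP inhibitor, moved the other way. It was at 2415, 1197 and 1287 normalized reads in P14 control, at 2291, 1404 and 1539 in P14 dMF1/2, at 686, 852 and 703 in P16 control, and at 929, 1089 and 841 in P16 dMF1/2. Every P16 library was below every P14 library, and the highest 2 values were those of the P14 libraries that stood apart by their Col1a1 share. The log2 change in controls was -1.06 ± 0.25 (limma's adjusted p = 0.0197), or -0.74 (adjusted p = 0.0138) without those 2 libraries. In dMF1/2 mice it was -0.85 ± 0.25 (adjusted p = 0.0716, DESeq2's 0.0175), or -0.63 (adjusted p = 0.0225) without them. At P16 the log2 difference between genotypes was 0.36 ± 0.13 (adjusted p = 0.173), and the adjusted p was 0.0272 with the replicate block, within a range of 0.0255 to 0.543 over the alternatives. Of the exon bases of Cdkn1c, 30.7% are shared with Gm44732 on the other strand, and the strand setting used in counting is not given in the sources used here.

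The other inhibitors among the 40 genes, Cdkn2c and Cdkn2d, belong to the INK4 family that binds CDK4 and CDK6 directly and were lower in level. Cdkn2c was at 124, 217.5 and 195 normalized reads in P14 control, 172, 282 and 253.5 in P14 dMF1/2, 256, 267 and 225 in P16 control, and 239.7, 256 and 246 in P16 dMF1/2. P16 controls lay above P14 controls, with a log2 change of 0.52 ± 0.21 that did not pass (adjusted p = 0.123). Cdkn2d was at 391, 286 and 288 in P14 control, 266, 227 and 209 in P14 dMF1/2, 256, 262 and 310.4 in P16 control, and 249, 214 and 303 in P16 dMF1/2. It was lower in all 3 dMF1/2 mice than in any control at P14, by -0.44 ± 0.16 on the log2 scale, and did not pass after adjustment (adjusted p = 0.595), while at P16 the genotypes overlapped.

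**Figure D3:**
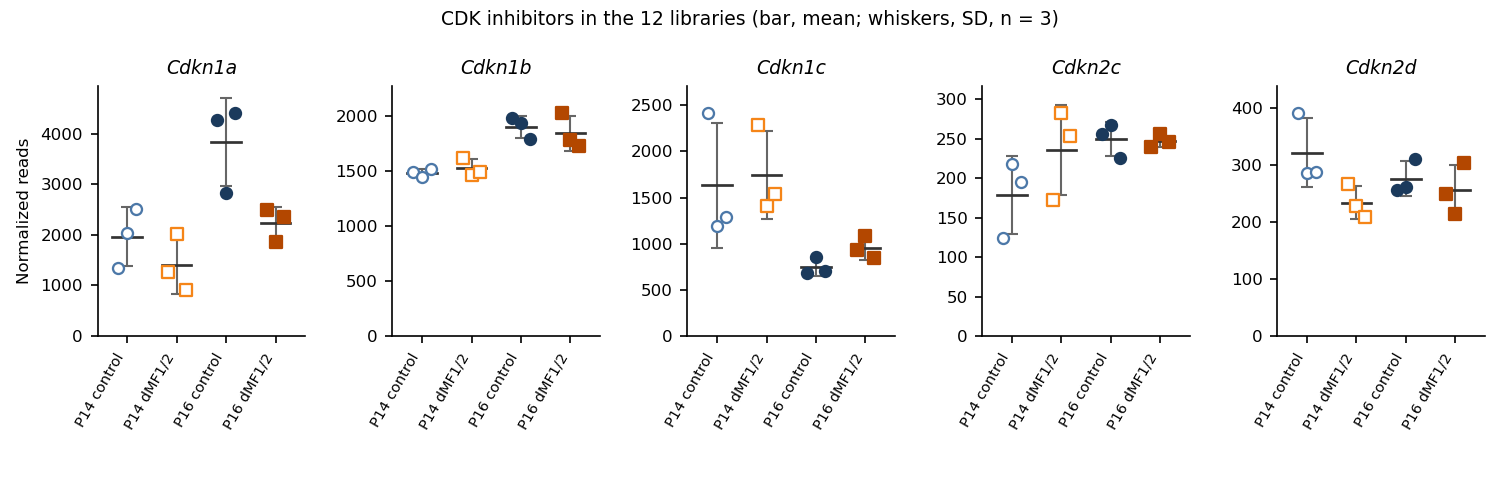
Normalized reads (y axis, from 0) of the 5 CDK inhibitors in the 12 libraries, by group. Points are libraries in the order of their replicate numbers, bars are group means and whiskers are SD (n = 3). Cdkn1b is higher and Cdkn1c lower in every P16 library than in any P14 library, and Cdkn1a is highest in the 3 P16 controls.

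The calls in controls changed with the libraries used, as did those of all genes. Leaving out P16 control replicate 1 lowered the share of all genes called from 14.5% to 5.17% and ended all 4 calls of members (adjusted p = 0.138 for Cdkn1a, 0.0677 for Cdkn1b, 0.0715 for Cdkn1c and 0.0805 for Pcna, by limma). Of the 4, 2 passed without P14 control replicate 1 (5.83% of all genes called), 1 without P14 control replicate 2 (7.78%) and 1 without P16 control replicate 3 (7.25%), and neither Cdkn1a nor Pcna was called in any of these fits. P16 control replicate 1 differed from its group mates in markers of other cells. Dermal sheath markers summed to 15197.5 there, against 33218.2 and 23791.4, and endothelial markers to 912.1, against 1910.7 and 1751.5. The sheath sum was lowest in replicate 1 of every group. In P16 control replicate 1 and its group mates the summed normalized reads of 14 genes that tissue dissociation is known to induce, such as Fos, Atf3 and Hspa1a, were 585840, 409338 and 455112, against 364959 to 390095 in P16 dMF1/2, 270692 to 445282 in P14 control and 332919 to 354797 in P14 dMF1/2. These sums were highest in the group with the highest Cdkn1a, and over the 2 days in controls 3 of the 14 genes rose (Atf3, Hspa1a and Hspa1b) and 0 fell. Over the same days in controls 7 of the 15 DP markers fell and 1 rose, and 3 of the 10 endothelial markers rose and 1 fell, where 8.28% of all genes fell and 6.26% rose. In dMF1/2 mice limma called 0 of 15 and 0 of 10, where it called 5.80% of all genes. There 4 of 15 and 1 of 10 had an unadjusted p under 0.05, against 22.8% of all genes. Between genotypes at P16, the comparison in which Cdkn1a was lower, 5 of the 15 DP markers were higher and 2 lower in dMF1/2 mice, against 2.18% and 2.14% of all genes, and 14 of the 15 had an unadjusted p under 0.05, against 19.0%. All 14 dissociation genes had negative log2 differences there, and Atf3 was called lower. The part of these genes in the levels of the CDK inhibitors was not tested.

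Limma called 0 of the 8 G1 genes in each comparison, with 3 results at an unadjusted p under 0.05 over the days (Ccne2 in controls and Cdk4 in both genotypes) and 1 between genotypes (Cdk4 at P16), while DESeq2 called Ccne2 in controls and Cdk4 in dMF1/2 mice over the days, where it called 19.6% and 10.4% of all genes. Limma's unadjusted p was under 0.05 for 31.9% of all genes in controls, 22.8% in dMF1/2 mice and 19.0% between genotypes at P16. Of the D-type cyclins, which carry growth signals to CDK4 and CDK6, Ccnd2 was the highest per kilobase. Ccnd1 was at 585, 871 and 834 normalized reads in P14 control, 682, 1334 and 1079 in P14 dMF1/2, 719, 726 and 712 in P16 control, and 727, 1069 and 760.2 in P16 dMF1/2. At P16 the lowest dMF1/2 library, at 726.6, was just above the highest control, at 725.9. Ccnd2 was at 2225, 2907 and 3306 in P14 control, 1902, 3223 and 3476 in P14 dMF1/2, 3210, 3214 and 2967 in P16 control, and 2989, 3138 and 2444 in P16 dMF1/2. Ccnd3 was at 2609, 1770 and 1980 in P14 control, 2159, 1721 and 1907 in P14 dMF1/2, 1950, 1742 and 1936 in P16 control, and 1677, 1403 and 1852 in P16 dMF1/2. The lowest Ccnd1 and Ccnd2 and the highest Ccnd3 of each P14 group were in its replicate 1. Over the 4 pairs of groups the log2 differences of the 3 D cyclins lay between -0.24 and 0.41.

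Ccne2, a cyclin E gene that E2F switches on before S phase, came nearest to a call among the G1 genes. It rose in range from 34 to 60.3 normalized reads in P14 control to 62 to 83.6 in P16 control, by 0.66 ± 0.21 on the log2 scale (limma's adjusted p = 0.0512), and passed with DESeq2 (0.0402, within a range of 0.0153 to 0.178 over the alternatives). Cdk4, the kinase partner of the D cyclins, was at 1581 to 1771 in P14 control, 1456 to 1591 in P14 dMF1/2, 1427 to 1524 in P16 control and 1274 to 1323 in P16 dMF1/2. Its P16 libraries did not overlap with the P14 libraries in either genotype, nor the genotypes with each other at P16. The log2 differences were -0.16 ± 0.07 in controls over the 2 days (adjusted p = 0.134), -0.24 ± 0.07 in dMF1/2 mice (0.0664, and 0.0233 with DESeq2) and -0.18 ± 0.07 between genotypes at P16 (0.23). Groups that do not overlap were common, at 36.0%, 27.6% and 24.5% of all genes in these comparisons. Ccne1 stayed between 18.9 and 64.1 normalized reads, Cdk2 between 248 and 327 and Cdk6 between 291 and 534 in the 12 libraries.

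Of the RB family, Rbl2, the member most abundant in resting cells, was at 1345 to 1499 normalized reads in P14 control, 1412 to 1518 in P14 dMF1/2, 1456 to 1649 in P16 control and 1633 to 1838 in P16 dMF1/2. Its log2 change in dMF1/2 mice was 0.27 ± 0.08 (limma's adjusted p = 0.0744, DESeq2's 0.0311). Rb1 was between 583 and 1469 normalized reads over the 12 libraries, Rbl1 between 77.1 and 127 and E2f1 between 132 and 270.2. Limma called 0 of the 4 in each comparison, and the groups overlapped for all 4 genes in each, except Rbl2 over the 2 days in dMF1/2 mice. At an unadjusted p under 0.05 there were 2, Rb1 (log2 change 0.54 ± 0.23) and Rbl2, both over the 2 days in dMF1/2 mice, where 22.8% of all genes were.

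Pcna, the sliding clamp of DNA polymerase, was the highest of the 10 replication genes per kilobase and the only one called. It was at 400.1, 379.5 and 499 normalized reads in P14 control, 421, 418 and 360.0 in P14 dMF1/2, 617, 548.5 and 676 in P16 control, and 502, 578 and 666 in P16 dMF1/2. Every P16 library was above every P14 library. The log2 change was 0.53 ± 0.14 in controls (limma's adjusted p = 0.0268) and 0.53 ± 0.14 in dMF1/2 mice (0.0426), with a difference between them of 0.00 (-0.42 to 0.43). In dMF1/2 mice the call was lost whichever of the 6 libraries was left out (adjusted p = 0.0545 to 0.149). In controls it was lost without P14 control replicate 1 (limma's adjusted p = 0.089) or 2 (0.0854). The same held without P16 control replicate 1 (0.0805) or 3 (0.0894) and in the limma fit of the 6 control libraries (0.0608). Pcna is also a gene that p53 induces and that serves DNA repair outside S phase.

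The other 9 replication genes were not called, and their changes were not tested against that of Pcna. The Mcm2 to Mcm7 genes encode the helicase loaded at replication origins, Rrm1 and Rrm2 the ribonucleotide reductase and Tyms thymidylate synthase. Their log2 changes lay between -0.12 and 0.34 in controls and between -0.40 and 0.33 in dMF1/2 mice, with 0 of 9 passing in limma, edgeR or DESeq2. At an unadjusted p under 0.05 with limma were 0 of 9, against 31.9% of all genes in controls and 22.8% in dMF1/2 mice. In controls Mcm7 changed by 0.29 (95% limits -0.03 to 0.61), with no overlap between the days, and Tyms by 0.34 (-0.24 to 0.91). In controls the limits of Mcm6, Mcm7, Rrm2 and Tyms include the change of Pcna and those of the other 5 lie below it. In dMF1/2 mice only those of Rrm2 (-0.44 to 1.1) include the change of Pcna, and the rest lie below it. At P16 Mcm7 was at 416 to 484 normalized reads in controls and 329 to 392 in dMF1/2 mice (log2 difference -0.29 ± 0.11, limma's adjusted p = 0.198), and Rrm1 at 580 to 611 and 668 to 741 (0.24 ± 0.08, adjusted p = 0.176). Mcm2, Mcm5 and Mcm6 were at 43.3 to 149 normalized reads in the 12 libraries, Mcm3 at 156 to 278 and Mcm4 at 377 to 515.

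Promoter sequence was looked at for the replication and mitotic genes as a description, and its part in the values of the libraries was not tested. RefSeq windows (GRCm38.p6) from 250 bases before to 50 bases after the start were available for 32 of the 40 genes. E2F sites were searched as TTTCGCG or TTTGGCG on either strand, and 4 of 9 replication genes with a window held one (Mcm3, Mcm5, Mcm6 and Mcm7, the last with 2 windows), where 2.37% of all 32851 windows did. Of the other genes with a window, 1 of 4 CDK inhibitors (Cdkn2c, with 2 windows), 1 of 3 RB family and E2F genes (Rbl1), 1 of 11 mitotic genes (Cdk1) and 0 of 5 G1 genes held one. Mcm5 and Mcm6 are shown as examples of helicase genes in which sites on opposite strands overlap, with the 200 bases before the start in lower case and E2F letters in capitals, at chr8:75109309-75109508 (plus strand) and chr1:128359706-128359905 (minus strand).
Mcm5: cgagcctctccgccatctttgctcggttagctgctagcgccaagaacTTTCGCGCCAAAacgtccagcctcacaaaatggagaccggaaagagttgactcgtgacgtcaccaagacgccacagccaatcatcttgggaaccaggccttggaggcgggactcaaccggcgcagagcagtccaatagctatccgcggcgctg
Mcm6: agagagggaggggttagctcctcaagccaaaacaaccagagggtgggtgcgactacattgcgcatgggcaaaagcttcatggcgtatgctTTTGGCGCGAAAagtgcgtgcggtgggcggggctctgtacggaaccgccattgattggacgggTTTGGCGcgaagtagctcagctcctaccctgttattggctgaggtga
The joined sites lie 153 to 142 bases before the start of Mcm5 and 110 to 99 bases before that of Mcm6, and Mcm6 has another at 47 to 41 bases. In these cells Mcm5 and Mcm6 ranked at the 25.7th and 28.7th percentile per kilobase.

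The 13 mitotic genes had few reads, from 0 to 14 per library for Aurkb and 0 to 10 for Bub1 up to 14 to 167 for Top2a. Summed over all 13, a library held 154 to 606 reads, and in each of 11 libraries between 1 and 7 of the 13 genes had fewer than 10 reads. Mki67 was at 51.9, 145.7 and 66.2 normalized reads in P14 control, 63.9, 85.1 and 59.4 in P14 dMF1/2, 37, 33.65 and 90.1 in P16 control, and 26.4, 39.5 and 37.4 in P16 dMF1/2. Top2a, the topoisomerase that untangles chromosomes before division, was at 48.1, 181.6 and 70.2, then at 50.3, 124.9 and 70.7, then at 37.9, 37.7 and 89.1, and at 14.8, 40.4 and 53 in the same 4 groups. For both genes replicate 2 was the highest of each P14 group and replicate 3 the highest of the P16 controls. Cdk1, the kinase that starts mitosis, was at 10.4, 27.2 and 9.88, then at 7.67, 12.9 and 13.5, then at 10.3, 17.3 and 21, and at 6.34, 11.9 and 6.23.

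The same libraries stood out across the mitotic genes. P14 control replicate 2 held the highest value of its group for 13 of 13 genes and the highest of all 12 libraries for 10 of them, P14 dMF1/2 replicate 2 the highest of its group for 9 of 13, and P16 control replicate 3 for 11 of 13. The summed normalized reads of the 13 genes were 253, 659 and 314 in P14 control, 281, 467 and 288 in P14 dMF1/2, 243, 187 and 402 in P16 control, and 163, 241 and 276 in P16 dMF1/2. The follicle keratinocyte markers summed to 583 in P14 control replicate 2, below 936 and 705 in its group mates, and to 375 in P16 control replicate 3, below 431 and 674. The immune markers summed to 272 and 297 in these 2 libraries, against 186 and 341 and against 360 and 449 in their group mates. In P14 dMF1/2 replicate 2 the keratinocyte sum was 697, against 824 and 509. Across the days the keratinocyte sum was lower at P16, with means of 741 ± 179 and 493 ± 159 in controls and 677 ± 159 and 601 ± 93.9 in dMF1/2 mice (SD, n = 3, overlapping groups).

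**Figure D4:**
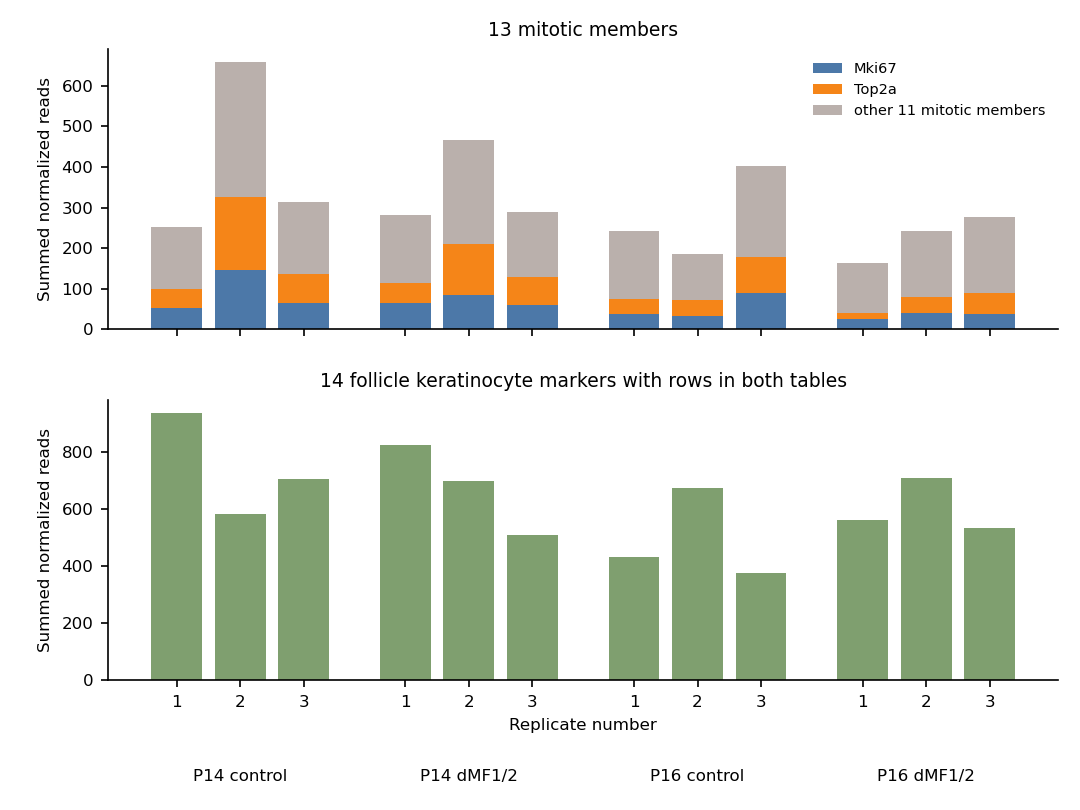
Summed normalized reads (y axes, from 0) in each of the 12 libraries of the 13 mitotic genes, with Mki67 and Top2a as separate parts of each bar, and of 14 follicle keratinocyte markers. The mitotic sum peaks at 659 in P14 control replicate 2, where the keratinocyte sum is the lowest of its group.

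The mean mitotic sum was 409 ± 219 in P14 control, 346 ± 106 in P14 dMF1/2, 277 ± 112 in P16 control and 227 ± 58.2 in P16 dMF1/2 (SD, n = 3), with overlapping groups between the days and the genotypes apart from P14 and P16 in dMF1/2 mice, where the lowest at P14 was 281 and the highest at P16 was 276. Of the 11 mitotic genes tested over the days, 8 had a negative log2 change in controls and 9 in dMF1/2 mice, with medians of -0.65 and -0.45 against 0.01 over all genes in both, and 0 of 11 were called by limma, edgeR or DESeq2. Over the same days 7 of 10 tested keratinocyte markers were negative in controls and 6 of 10 in dMF1/2 mice, with medians of -0.68 and -0.21. Msx2 fell in controls (log2 change -0.87 ± 0.21) and Tchh in dMF1/2 mice (-1.05 ± 0.20), and Krt71 changed by -2.08 and -2.24 without passing (limma's adjusted p = 0.117 and 0.14). The part of keratinocyte RNA in the mitotic values was not tested. At an unadjusted p under 0.05 were 0 of the 11 mitotic genes in controls, against 31.9% of all genes, and 2 in dMF1/2 mice (Mki67 and Aurka), against 22.8%. Mki67 changed by -0.71 (95% limits -1.62 to 0.21) in controls and -1.0 (-1.91 to -0.08, limma's adjusted p = 0.179) in dMF1/2 mice, and Top2a by -0.74 (-2.01 to 0.52) and -1.24 (-2.51 to 0.03). These values moved with single libraries. In controls Mki67 was at -0.27 and Top2a at -0.20 without P14 control replicate 2, and both at -1.15 without P16 control replicate 3, and in dMF1/2 mice Top2a was at -0.71 without P16 dMF1/2 replicate 1. Aurka, the kinase of spindle poles, was at 12.9 to 24.7 normalized reads in P14 dMF1/2 and 4.23 to 10.4 in P16 dMF1/2 (log2 change -1.16 ± 0.40, adjusted p = 0.112, or -0.67 with a pseudocount of 10), against 10.9 to 20.7 and 12.2 to 18 in the controls.

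Between genotypes limma, edgeR and DESeq2 called 0 of the mitotic genes. With limma 0 had an unadjusted p under 0.05 on either day, against 7.32% of all genes at P14 and 19.0% at P16. The median log2 difference was -0.18 over 11 genes at P14 and -0.29 over 9 genes at P16, against 0.00 over all genes on both days. Mki67 differed by -0.21 (95% limits -1.10 to 0.69) at P14 and -0.49 (-1.37 to 0.39) at P16, and Top2a by -0.15 (-1.40 to 1.09) and -0.64 (-1.81 to 0.53). At P16 the difference of Mki67 was -0.05 without P16 control replicate 3, and that of Top2a was -0.24 without that library and -0.12 without P16 dMF1/2 replicate 1. Cdk1 at P16 differed by -0.91 (-1.89 to 0.07) and Aurka by -0.93 (-1.92 to 0.06). With a pseudocount of 10 these were -0.52 and -0.51, and without P16 dMF1/2 replicate 1 Aurka was at -0.56.

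Ccna2 was at 8.16 to 60.9 normalized reads in the 12 libraries, Ccnb1 at 5.28 to 39.2, Ccnb2 at 5.1 to 22.6, Bub1b at 17.05 to 41.3, Plk1 at 9.18 to 27.2, Cdc20 at 16.8 to 52.8 and Birc5 at 5.1 to 27.2. Aurkb and Bub1, both under the filter, reached at most 15.2 and 10.9, with no read of Aurkb in P16 control replicate 2 and P16 dMF1/2 replicate 1 and none of Bub1 in P14 dMF1/2 replicate 3, which at a count of 0 allows up to 3 reads.

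Promoters of the mitotic genes were searched for 2 short motifs. The cell cycle homology region, to which MuvB binds, was searched as TTTGAA or TTCGAA, and the CCAAT box, to which NF-Y binds, as CCAAT, each on both strands. Of 11 mitotic genes with a window, 9 held both (Mki67, Top2a, Ccnb2, Cdk1, Aurka, Bub1, Bub1b, Plk1 and Cdc20), where 7.52% of all windows did. Ccnb1 held CCAAT alone and Birc5 neither. Singly, TTTGAA or TTCGAA was in 19.2% and CCAAT in 37.4% of all windows. None of the 4 CDK inhibitors with a window held TTTGAA or TTCGAA, and 3 held CCAAT (Cdkn1b, Cdkn2c and Cdkn2d). Of 9 replication genes with a window, 8 held CCAAT and 2 held TTTGAA or TTCGAA, so CCAAT was about as frequent there as in the mitotic genes, with 10 of 11. The 200 bases before the start of Mki67, Top2a and Cdk1, described above in every library, and of Cdc20, the highest mitotic gene per kilobase, are given with these motifs in capitals, at chr7:135716380-135716579, chr11:99024190-99024389, chr10:69352913-69353112 and chr4:118437344-118437543, all on the minus strand.
Mki67: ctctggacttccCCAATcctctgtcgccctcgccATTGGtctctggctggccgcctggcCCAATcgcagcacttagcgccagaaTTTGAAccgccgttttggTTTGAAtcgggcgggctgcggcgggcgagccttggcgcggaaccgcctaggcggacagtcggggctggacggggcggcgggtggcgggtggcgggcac
Top2a: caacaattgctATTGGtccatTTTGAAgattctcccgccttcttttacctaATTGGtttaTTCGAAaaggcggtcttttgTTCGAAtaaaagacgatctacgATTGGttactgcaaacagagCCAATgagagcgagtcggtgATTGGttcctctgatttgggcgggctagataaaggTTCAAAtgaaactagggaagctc
Cdk1: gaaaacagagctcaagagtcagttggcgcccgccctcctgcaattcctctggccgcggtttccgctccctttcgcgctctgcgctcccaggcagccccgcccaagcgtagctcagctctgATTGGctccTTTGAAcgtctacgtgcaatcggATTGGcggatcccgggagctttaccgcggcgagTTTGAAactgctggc
Cdc20: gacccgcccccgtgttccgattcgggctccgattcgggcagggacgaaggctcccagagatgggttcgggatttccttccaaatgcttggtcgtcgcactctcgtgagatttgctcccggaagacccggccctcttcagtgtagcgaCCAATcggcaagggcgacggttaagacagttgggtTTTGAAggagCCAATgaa
In Cdk1 and Cdc20 a TTTGAA lies close to the RefSeq start, from 15 to 10 and from 18 to 13 bases before it. In Top2a its reverse complement TTCAAA lies from 23 to 18 bases before the start. By the deposited gene coordinates Cdk1 extends to chr10:69352938, which places this TTTGAA of Cdk1 inside the gene. A match to so short a motif is a description of the sequence and not a shown binding site.

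**Figure D5:**
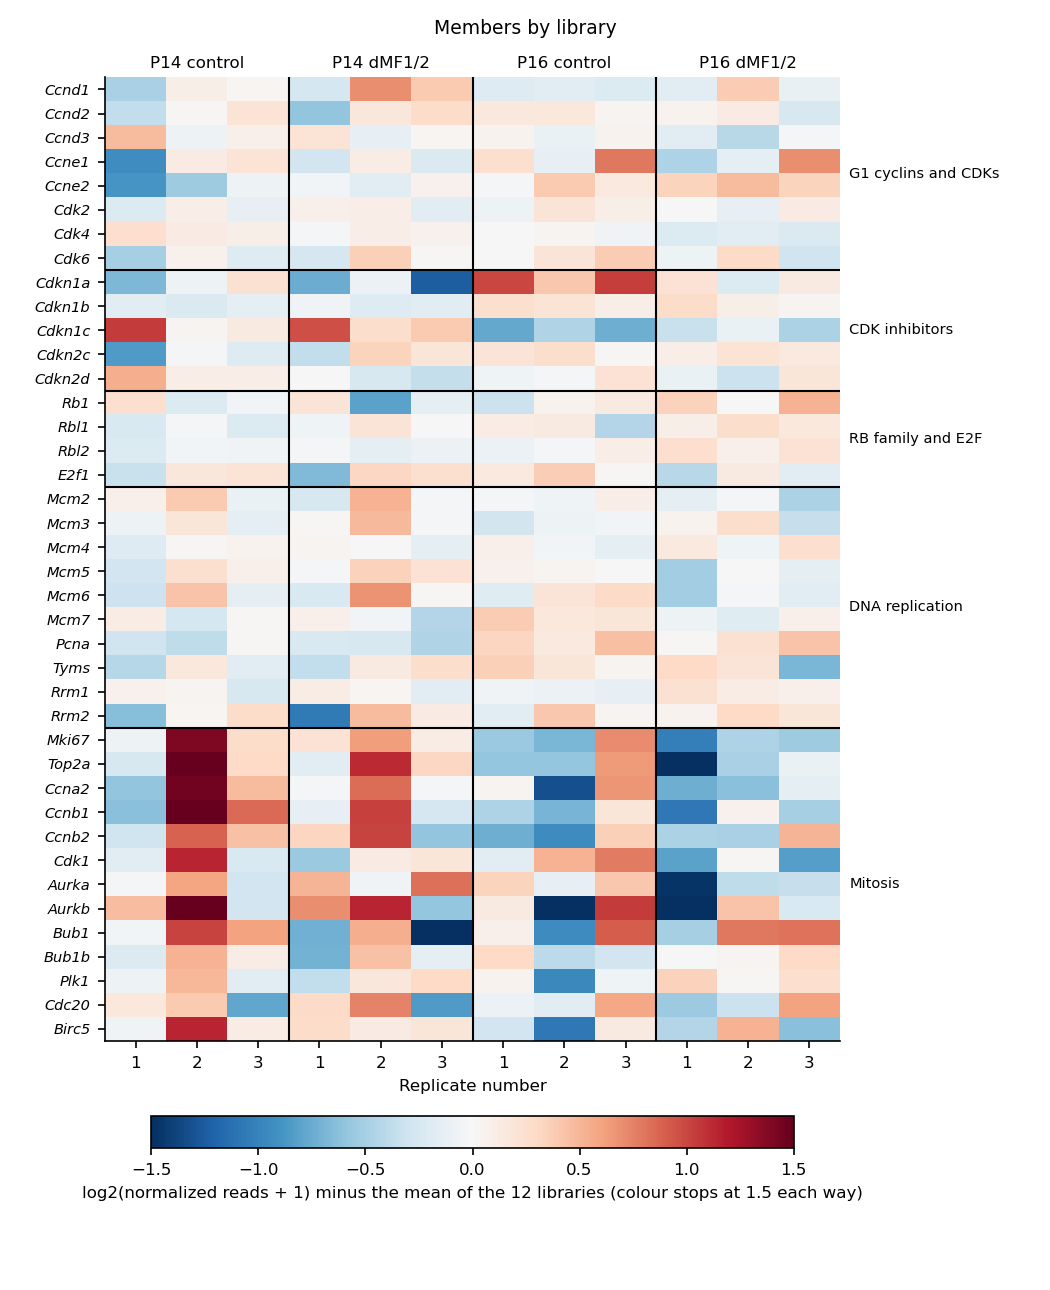
log2(normalized reads + 1) of each of the 40 genes minus its mean over the 12 libraries (colour, which stops at 1.5 each way), with genes in rows by role and libraries in columns by group. The mitotic genes are high together in P14 control replicate 2, where 10 of the 13 have their highest value, while most G1 and replication genes vary less.

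Other cell cycle genes were taken from lists of replication, mitosis, G1 and E2F, MuvB and antiproliferative genes, 121 in all. In controls 5 of 103 tested rose from P14 to P16 and 3 fell, where 6.26% of all genes rose and 8.28% fell. In dMF1/2 mice 1 rose and 1 fell, against 1.83% and 3.97%. Between genotypes at P14 0 of 106 were called by limma, with 7 at an unadjusted p under 0.05, against 7.32% of all genes, and at P16 0 of 103 were higher and 3 lower in dMF1/2 mice, against 2.18% and 2.14% of all genes. Of 19 targets of p53, 3 rose and 2 fell over the 2 days in controls, 1 rose and 1 fell in dMF1/2 mice, and 2 were lower in dMF1/2 mice at P16.

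Over the 2 days in controls, the largest rises among the called genes of these lists were in Pmaip1 (log2 change 1.36 ± 0.28), Trp53inp1 (1.27 ± 0.14), Btg2 (1.02 ± 0.27) and Eda2r (0.81 ± 0.21). Pmaip1, Trp53inp1 and Eda2r are targets of p53 with roles in cell death, and Btg2 restrains the passage from G1 to S phase. The largest falls among called genes were in Ncapd2 (-0.76 ± 0.14), Gins2 (-0.68 ± 0.19), Phlda3 (-0.67 ± 0.19) and Bax (-0.62 ± 0.09), so targets of p53 stood on both sides. Trp53inp1, Bax and Ncapd2 kept an adjusted p under 0.05 whichever library was left out, Pmaip1 lost it without P16 control replicate 1 (limma's adjusted p = 0.0529), and the other 4 lost it without P16 control replicate 1 and in at least 1 further fit. Ncapd2, a condensin subunit, was at 849 normalized reads per kilobase, against 6.93 and 1.4 for the subunits Ncaph and Ncapg, and 3.8% of its exon bases are shared with the small RNA gene Scarna10 and Gm28967 on the same strand, so its value is uncertain as a measure of condensin.

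In dMF1/2 mice Trp53inp1 rose by 0.65 ± 0.14 and Cdc6, which loads the Mcm helicase, by 2.0 ± 0.53 (0.85 with a pseudocount of 10 and 2.45 with 0.1, neither passing), while Ncapd2 fell by 0.97 and Bax by 0.40 on the log2 scale. Leaving out P14 dMF1/2 replicate 2 or 3 or P16 dMF1/2 replicate 1 or 2 ended the calls of Trp53inp1 (limma's adjusted p = 0.057 to 0.11) and Bax (0.0815 to 0.121). Cdc6 was at 0.853, 2.15 and 7.85 normalized reads in P14 dMF1/2 and 11 to 16.6 in P16 dMF1/2, against 12 to 13.8 in P14 control, and lost its call without P14 dMF1/2 replicate 1 (limma's adjusted p = 0.105) and without replicate 2 (0.131). At P16 the genes lower in dMF1/2 mice were Gas1 (-1.22 ± 0.19), which arrests growth in resting fibroblasts, Gadd45a (-1.01 ± 0.17), Myc (-0.86 ± 0.19), Trp53inp1 (-0.62 ± 0.13) and Hes1 (-0.52 ± 0.10), the last a member of these lists that the rule for named genes leaves out and that was named after its values were seen. Gas1 was at 11560 to 13850 normalized reads in P16 control and 4274 to 7295 in P16 dMF1/2, and Myc, a driver of proliferation, at 1005 to 1559 and 618 to 878. Each of the 5 lost its call in at least 1 fit without 1 library, among them the fit without P16 control replicate 3 for all 5 (limma's adjusted p = 0.0566 for Gas1 and 0.0748 for Gadd45a).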

How the data were processed

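RNA of sorted DP cells from 12 mice was sequenced as single-end reads after rRNA depletion with a strand-specific kit. Per the labels and the study's methods, the authors trimmed reads with Trimmomatic, aligned them with TopHat 2 to mm10 (GRCm38.p4), counted them per gene with HTSeq and scaled them with DESeq2 in a separate table for each day. The deposited values are a signal per gene, reads divided by DESeq2 size factors, and were whole multiples of 1 read (tolerance 0.001) for 100% of values. Columns with the authors' own comparisons (mean, log2 fold change, its error, test statistic, p and adjusted p) were not used.

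For each day, control and dMF1/2 libraries were tested against each other in limma 3.58.1 (R 4.3.3) on log2(value + 1). Genes whose mean was under 10 were left out, with Benjamini-Hochberg adjustment over all genes tested and a threshold of 0.05. Fold changes are therefore on the log2(value + 1) scale, which understates changes of low genes. For changes between days and their difference, the recovered reads of the 14986 genes in both tables received new median-of-ratios size factors across all 12 libraries, and a single 4-group model was fitted. Values per library are on that common scale. DESeq2 1.42.0 and edgeR 4.0.16 on the recovered reads, TMM scaling, pseudocounts of 0.1 and 10, other filters, a replicate block and leaving out each library were alternatives, and fits without both P14 replicate 1 libraries and edgeR with a block were added after seeing the data. The scripts were tested on simulated data.

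Within a day, deviations from the group means of same-numbered libraries correlated at 0.586, 0.389 and 0.304 (P14) and 0.256, 0.293 and 0.311 (P16), so the numbers pair libraries there. Across days the correlations were -0.162 to 0.208, and they do not. The members and lists were chosen with earlier results of these data known. Values in every library are given for CDK inhibitors, D cyclins, Mki67, Top2a, Cdk1 and called members, and from the wider lists up to 4 called genes in each direction with the largest change are named. Depth was 19302358 to 29860750 reads per library, and each library was 1 mouse.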

Additional observations from a re-analysis of the deposited data

How the results depend on the processing

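The number of members called depended on the fit. Between genotypes at P16 it was 0, against 1 with DESeq2, 2 with the replicate block in limma, 2 with the replicate block in edgeR and 0 to 1 when 1 library was left out. From P14 to P16 in controls it was 4 (14.5% of all genes), against 5 with DESeq2 (19.6%), 1 in a fit of the 6 control libraries (6.01%), 2 without both P14 replicate 1 libraries (7.09%) and 0 to 5 when 1 library was left out. In dMF1/2 mice it was 1 (5.80%), against 5 with DESeq2 (10.4%), 2 with the replicate block (7.04%), 0 in a fit of the 6 libraries (2.41%), 2 without both P14 replicate 1 libraries (6.1%) and 0 when any 1 library was left out. The counts at P14 and for the difference between the changes were 0 in every alternative run. With the replicate block over the days, where the numbers do not pair libraries, Cdkn1a in controls was no longer called (adjusted p = 0.0619), while Ccne2 in controls (0.0473) and Cdkn1b in dMF1/2 mice (0.0471) were. Over all genes, limma called 7 at P14 against 207 with DESeq2 and 224 with the block, 582 at P16 against 1123 and 1403, and 778 in dMF1/2 mice over the 2 days against 1341 with DESeq2. The causes were not tested.

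Of the wider lists, Cdc6 in dMF1/2 mice lost its call with edgeR (adjusted p = 0.0581) and with pseudocounts of 0.1 (0.0534) and 10 (0.0504), and had no adjusted p with DESeq2. Myc (0.0882) and Hes1 (0.0625) at P16 lost theirs in the fit of the 12 libraries. In the fits of 6 libraries Btg2 (0.0849), Eda2r (0.0589), Gins2 (0.0997) and Phlda3 (0.082) in controls and Trp53inp1 (0.0542) and Bax (0.0907) in dMF1/2 mice lost theirs. Without both P14 replicate 1 libraries the same 4 in controls (0.0917 to 0.107) and Cdc6 (0.109) did. Signs turned for the differences that follow. Ccnd2 turned at P14 in the fit of the 12 libraries (0.00) and over the days in dMF1/2 mice with DESeq2 (0.00) and edgeR (-0.01). Without both P14 replicate 1 libraries, Cdkn1b at P14 (0.00), Ccnd3 (0.00) and Cdk1 (-0.08) in controls and Cdkn2c (-0.11) and Ccnd2 (-0.24) in dMF1/2 mice turned. With 1 library left out, log2 differences at P14 ranged from -0.16 to 0.28 for Ccnd2, -0.24 to 0.04 for Ccnd3, -0.07 to 0.46 for Cdkn1c, -0.51 to 0.23 for Mki67, -0.56 to 0.39 for Top2a, -0.57 to 0.12 for Cdk1, -0.16 to 0.04 for Pcna and 0.00 to 0.07 for Cdkn1b. At P16 they ranged from -0.07 to 0.05 for Cdkn2c, -0.18 to 0.03 for Pcna, -0.24 to 0.01 for Cdkn2d and -0.11 to 0.01 for Cdkn1b. Over the days they ranged in controls from -0.28 to 0.00 for Ccnd3, -0.11 to 0.58 for Cdk1 and -0.24 to 0.04 for Ccnd1, and in dMF1/2 mice from -0.24 to 0.20 for Ccnd2, -0.11 to 0.24 for Cdkn2c and -0.01 to 0.24 for Cdkn2d. The difference between the changes ranged from -0.52 to 0.05 for Cdkn1a, -0.11 to 0.43 for Cdkn1c, -0.45 to 0.03 for Ccnd1, -0.41 to 0.03 for Ccnd2, -0.72 to 0.15 for Mki67, -0.23 to 0.05 for Ccnd3, -0.11 to 0.11 for Pcna and -1.04 to 0.03 for Top2a. With 154 to 606 mitotic reads per library, depth limits what can be said of the mitotic genes.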
